A study of Mus musculus with 4 samples.

Results

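The Hox genes are the 39 mouse homeobox genes of the HoxA, HoxB, HoxC and HoxD clusters, and they were taken here by symbol from the annotation and looked up by gene identifier in each table. Of the 39 genes, 28 were listed in at least 1 library and 13 in all 4 libraries, out of 17762 genes listed in at least 1 library. The other 11 Hox genes were listed in none of the 4 tables. The libraries came from adenomas of C57BL/6 ApcMin mice aged 110 days, a strain whose mutant Apc allele gives intestinal tumours, so every animal carried that allele. There were 2 Strap KO libraries and 2 Strap WT libraries. The labels call the tissue colon adenoma, while the RNA protocol speaks of adenomas of the intestine. The design text names the knockout StrapIEKO, and no source used here names the cells in which Strap was deleted or a Cre driver.

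Hox proteins bind DNA through the homeodomain and give cells a position along the head-to-tail axis. Genes at one end of each cluster, with low numbers, are used in anterior parts of the embryo, and genes at the other end, with high numbers, in posterior parts. Genes with the same number in different clusters form a paralog group. In the gut this order is kept into adult life, with the highest-numbered genes active in the hindgut. Cdx transcription factors help to switch the Hox genes on in the intestine, and Pbx and Meis proteins bind DNA together with Hox proteins.

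The libraries held 14084831 to 15640941 expected counts and listed 15270 to 16227 genes. Strap stood at 7.4 and 10.01 FPKM in KO replicates 1 and 2, against 61.3 and 43.8 FPKM in WT replicates 1 and 2. FPKM corrects a gene's count for its length and for the size of the library, so that levels of different genes can be set side by side. The X-inactivation transcript Xist was at 10.5 and 54.7 FPKM in KO and WT replicate 1 and at most 0.05 FPKM in both replicates 2. The Y-linked genes Ddx3y, Kdm5d and Uty were listed in both replicates 2 alone, which gives both genotypes 1 library of either pattern. The labels do not state which animals were used, but by these transcripts the libraries of a genotype were not repeats of 1 animal. The replicate number and this pattern run together, and the part of the pattern in the Hox values was not tested. A total of 366 of 12769 tested genes differed by more than 4-fold between the WT libraries with the lower value in replicate 2, and 136 with the higher value there.

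The Hox level was carried by part of the HoxA and HoxB clusters in every library. Summed over the 39 genes, the level was 16.9 and 7.91 FPKM in KO replicates 1 and 2, against 10.1 and 72.1 FPKM in WT replicates 1 and 2. WT replicate 2 was thus the highest library, and WT replicate 1 lay between the KO libraries. HoxB genes summed to 13.3 and 3.1 FPKM in KO, against 1.34 and 68.2 FPKM in WT. HoxA genes had another order, with 2.83 and 3.83 FPKM in KO, against 8.46 and 2.06 FPKM in WT. For both clusters the KO libraries fell between the WT libraries, with WT replicate 1 highest for HoxA and WT replicate 2 highest for HoxB. HoxC genes summed to 0.22 and 0.23 FPKM in KO, against 0.14 FPKM in WT replicate 1 and no listed gene in WT replicate 2. HoxD genes summed to 0.54 and 0.75 FPKM in KO, against 0.19 and 1.84 FPKM in WT. In bulk tissue, fewer cells of a type and less RNA per cell cannot be told apart, so none of these levels is a level per cell.

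**Figure D1:**
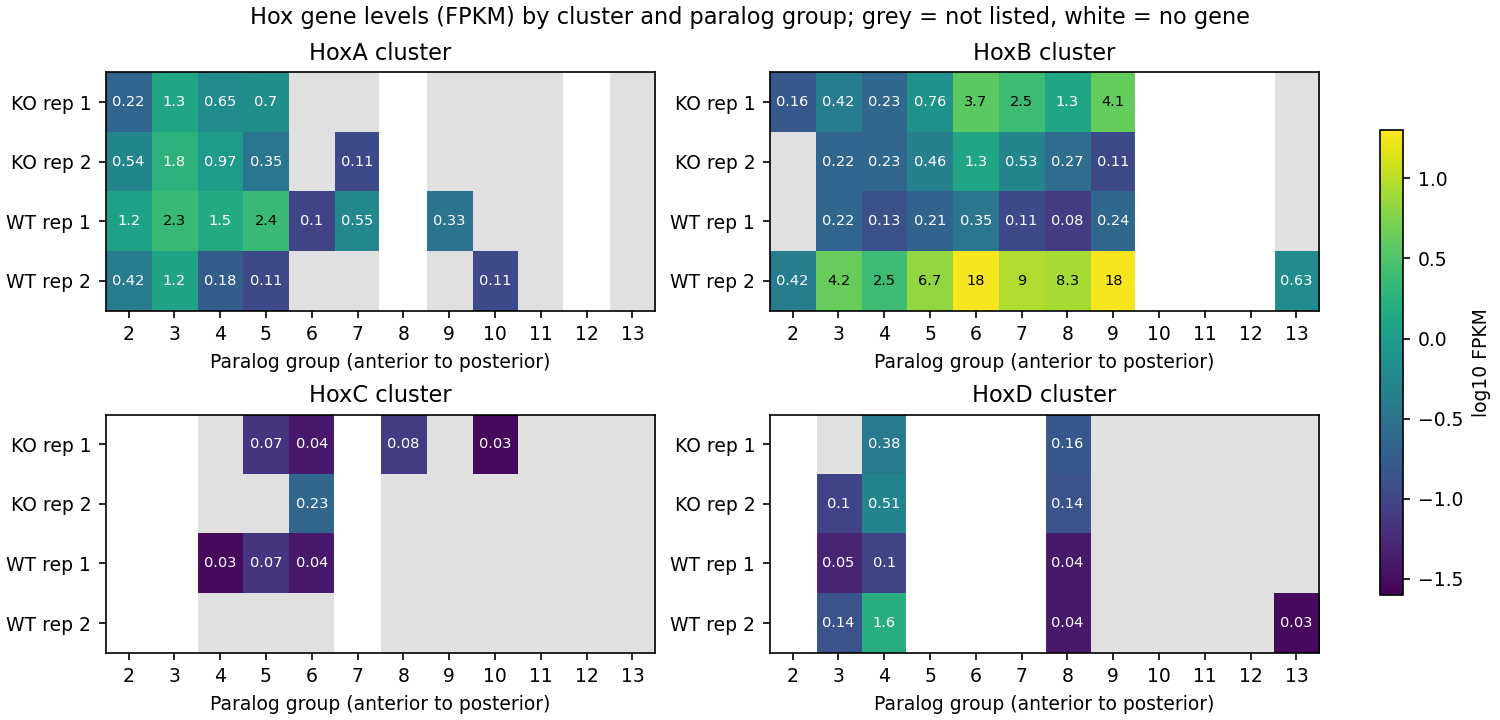
FPKM of the Hox genes of paralog groups 2 to 13 by cluster (panels), paralog group (columns) and library (rows), coloured by log10 FPKM with the FPKM printed in the cell. HoxB groups 3 to 9 are brightest in WT replicate 2 (2.46 to 18.4 FPKM), HoxA groups 2 to 5 in WT replicate 1 (1.17 to 2.35 FPKM), and groups 10 to 13 are nearly all grey, meaning not listed. White cells hold no gene.

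The clusters lie on 4 chromosomes of the mm10 build. HoxA lies on chromosome 6 from 52155367 to 52260880, HoxB on chromosome 11 from 96194316 to 96368254, HoxC on chromosome 15 from 102921131 to 103036856 and HoxD on chromosome 2 from 74668225 to 74765142. The homeobox, the coding sequence of the homeodomain, is shown for Hoxb6 and Hoxb9, the Hox genes with the highest mean FPKM over the 4 libraries, a mean carried by WT replicate 2. Their ratio set KO replicate 2 apart from the other libraries. The sequences are from GENCODE M21 transcripts of GRCm38, read 5′ to 3′ on the coding strand, and capitals mark the codons of the most conserved stretch of the DNA recognition helix.
Hoxb6, exon 2 of 2, chromosome 11 from 96300689 to 96300868, plus strand: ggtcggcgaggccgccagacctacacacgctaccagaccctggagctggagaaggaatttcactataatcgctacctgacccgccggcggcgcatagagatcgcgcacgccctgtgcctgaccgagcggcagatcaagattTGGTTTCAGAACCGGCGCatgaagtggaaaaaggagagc
Hoxb9, exon 2 of 2, chromosome 11 from 96274659 to 96274838, plus strand: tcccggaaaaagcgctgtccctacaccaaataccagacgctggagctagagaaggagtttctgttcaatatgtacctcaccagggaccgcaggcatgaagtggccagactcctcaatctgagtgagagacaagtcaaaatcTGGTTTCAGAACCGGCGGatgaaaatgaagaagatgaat

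Over their 180 bases, Hoxb6 and Hoxb9 shared 62.2% of positions. Over all 39 homeoboxes, the median identity was 80.6% for the 42 pairs of the same paralog group and 61.7% for the 172 pairs of the same cluster. The longest identical aligned stretch in any pair of the 39 was 52 bases, which is shorter than the 100-base reads named in the labels' protocol. Of the 75 listed Hox expected counts, 72 were whole numbers within 0.005. The 3 others all belonged to Hoxa3, and each became whole when the expected count of the antisense transcript Hoxaas2 was added. Hoxa3 and Hoxaas2 together had counts of 52 and 71 in KO replicates 1 and 2, against 91 in WT replicate 1, while WT replicate 2 had 47 for Hoxa3 alone. No source used here states whether counting used strand, so reads of overlapping genes on opposite strands cannot be told apart.

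At the anterior end, Hoxb1, a hindbrain gene, was listed in KO replicate 1 alone, at 0.13 FPKM. Hoxa2, which sets the identity of the second pharyngeal arch, was at 0.22 and 0.54 FPKM in KO, against 1.17 and 0.42 FPKM in WT. Hoxb2, also a hindbrain gene, was listed in KO replicate 1 at 0.16 FPKM and in WT replicate 2 at 0.42 FPKM. In paralog group 3 the members differed in spread. Hoxa3, needed for thymus and parathyroid formation, was the only Hox gene at or above 1 FPKM in all 4 libraries. It was at 1.26 and 1.83 FPKM in KO, against 2.34 and 1.24 FPKM in WT. Its paralog Hoxb3 was at 0.42 and 0.22 FPKM in KO, against 0.22 and 4.2 FPKM in WT. The ratio of Hoxb3 to Hoxa3 was 0.333 and 0.12 in KO, against 0.094 and 3.39 in WT, so that Hoxb3 exceeded Hoxa3 in WT replicate 2 alone.

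In paralog groups 4 and 5 the HoxA gene was also highest in WT replicate 1 and the HoxB gene in WT replicate 2. Hoxa4, which patterns cervical vertebrae, was at 0.65 and 0.97 FPKM in KO, against 1.5 and 0.18 FPKM in WT. Hoxb4, known for promoting the growth of blood stem cells, was at 0.23 FPKM in both KO libraries, against 0.13 and 2.46 FPKM in WT. Hoxd4 was at 0.38 and 0.51 FPKM in KO, against 0.1 and 1.63 FPKM in WT, an order like that of Hoxb4. Hoxa5, required for lung development, was at 0.7 and 0.35 FPKM in KO, against 2.35 and 0.11 FPKM in WT. Hoxb5, also active in lung and in the enteric nervous system, was at 0.76 and 0.46 FPKM in KO, against 0.21 and 6.7 FPKM in WT. Hoxb5 stood at 1.09 and 1.31 times the Hoxa5 level in KO, against 0.089 and 60.9 times in WT. The KO libraries had near-equal levels of this pair and the WT libraries lay on opposite sides of them.

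In groups 6 to 8 the highest gene was a HoxB gene in KO replicate 1, KO replicate 2 and WT replicate 2, while in WT replicate 1 it was Hoxa7. Hoxb6, a gene of posterior mesoderm, was at 3.73 and 1.28 FPKM in KO, against 0.35 and 18.4 FPKM in WT. Hoxb7, active in the ureteric bud of the kidney, was at 2.53 and 0.53 FPKM in KO, against 0.11 and 9.04 FPKM in WT. Hoxb8, known for holding myeloid progenitors in an immature state, was at 1.28 and 0.27 FPKM in KO, against 0.08 and 8.35 FPKM in WT. Each of these genes had WT replicate 2 highest, then KO replicate 1, KO replicate 2 and WT replicate 1. Hoxa6 was listed in WT replicate 1 alone, at 0.1 FPKM. Hoxa7 was listed at 0.11 FPKM in KO replicate 2 and 0.55 FPKM in WT replicate 1. Hoxd8 was listed in all 4 libraries, at 0.16 and 0.14 FPKM in KO and 0.04 FPKM in each WT library, which is a count of 4 in each KO library and 1 in each WT library.

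Hoxb9, a gene of thoracic position in the skeleton, marked the posterior end of the measurable code. It was at 4.09 and 0.11 FPKM in KO, against 0.24 and 18.03 FPKM in WT. The counts behind these values were 170 and 4 in KO and 10 and 729 in WT, with exact Poisson 95% intervals of 145 to 198 and 1.09 to 10.2 in KO and 4.8 to 18.4 and 677 to 784 in WT, which cover counting error only. Within the HoxB cluster Hoxb9 took 30.7% and 3.55% of the FPKM in KO, against 17.9% and 26.4% in WT. Hoxb9 stood at 1.1 and 0.086 times the Hoxb6 level in KO, against 0.686 and 0.983 times in WT. KO replicate 2 therefore had Hoxb6 without a like level of Hoxb9, unlike the other 3 libraries. Hoxa9 was listed in WT replicate 1 alone, at 0.33 FPKM.

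Paralog groups 10 to 13 were almost empty. Hoxa10 was listed at 0.11 FPKM in WT replicate 2 and Hoxc10 at 0.03 FPKM in KO replicate 1. No gene of groups 11 and 12 was listed in any library. Of the group 13 genes, which are active in the hindgut and distal colon, Hoxb13 was listed in WT replicate 2 alone at 0.63 FPKM, a count of 12. Hoxd13 was listed in the same library at 0.03 FPKM, a count of 1, and Hoxa13 and Hoxc13 in none. The tissue is labelled colon, and no group 13 gene was listed in KO replicate 1, KO replicate 2 or WT replicate 1. In WT replicate 2, the library with the highest HoxB level, Hoxb13 stood above Hoxa2, Hoxa4 and Hoxa5. Those genes were at 0.42, 0.18 and 0.11 FPKM there. Among the HoxC genes the highest value was 0.23 FPKM for Hoxc6 in KO replicate 2.

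**Figure D2:**
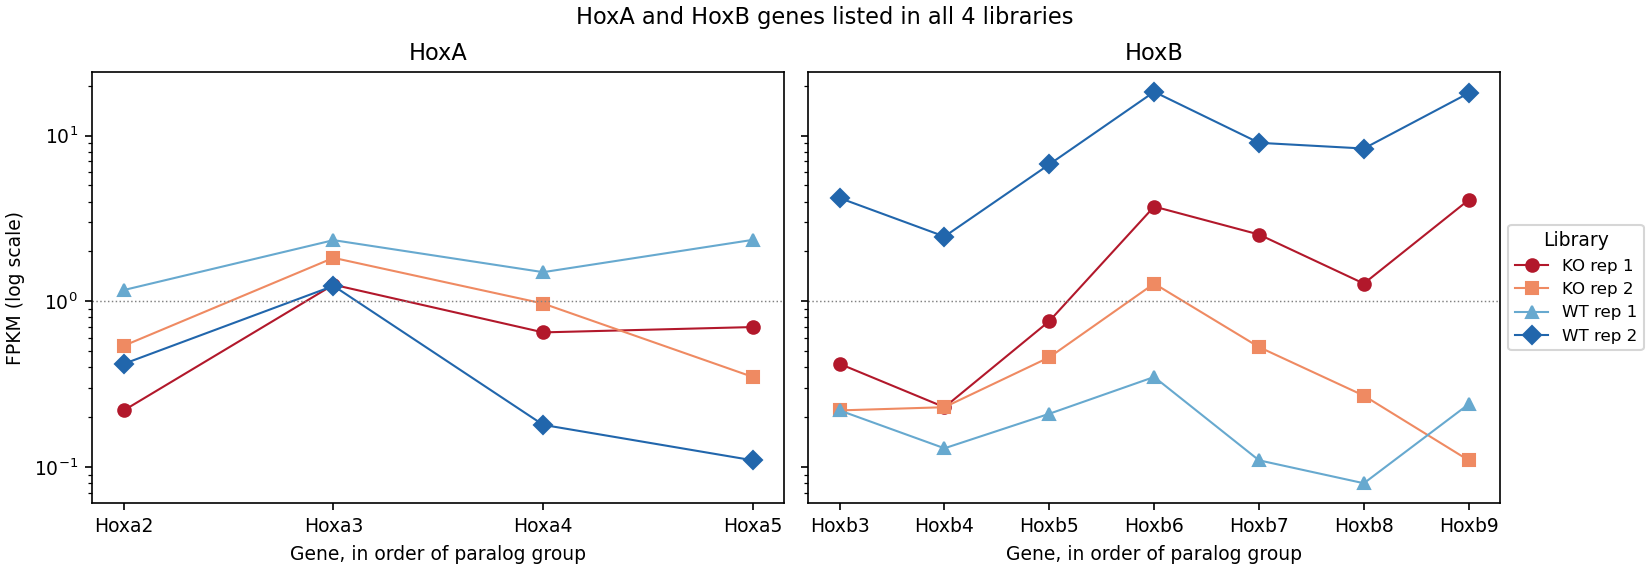
FPKM (log scale) of the HoxA and HoxB genes listed in all 4 libraries, in order of paralog group, with 1 line per library and a dotted line at 1 FPKM. In HoxB the WT replicate 2 line lies above the others throughout and KO replicate 2 drops from 1.28 FPKM at Hoxb6 to 0.11 FPKM at Hoxb9, while in HoxA the WT replicate 1 line is highest and WT replicate 2 drops to 0.11 FPKM at Hoxa5.

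Read as a positional code, the libraries of each genotype did not share a profile. Paralog groups 9 to 13 took 24.4% and 1.39% of the summed Hox FPKM in KO, against 5.63% and 26.1% in WT, which averaged 12.9 ± 16.2% in KO and 15.9 ± 14.5% in WT (SD, n = 2 each). Groups 1 to 3 took 12.9% and 34.4% in KO, against 38.5% and 8.91% in WT. Groups 4 to 8 took 62.7% and 64.2% in KO, against 55.9% and 65% in WT, and were the largest share in each library. The FPKM-weighted mean paralog number was 6.4 and 4.58 in KO, against 4.36 and 6.69 in WT. KO replicate 1 was thus closest to WT replicate 2 on this scale, and KO replicate 2 to WT replicate 1. Within HoxB the mean paralog number was 7.02 and 5.94 in KO, against 5.9 and 6.86 in WT, with the same pairs close together. No HoxB gene had a count above 11 in WT replicate 1. Within HoxA the mean paralog number was 3.65 and 3.39 in KO, against 4.1 and 3.36 in WT. There KO replicate 2 lay beside WT replicate 2, and WT replicate 1 had the highest number. HoxB took 78.8% and 39.2% of the Hox level in KO, against 13.2% and 94.6% in WT.

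**Figure D3:**
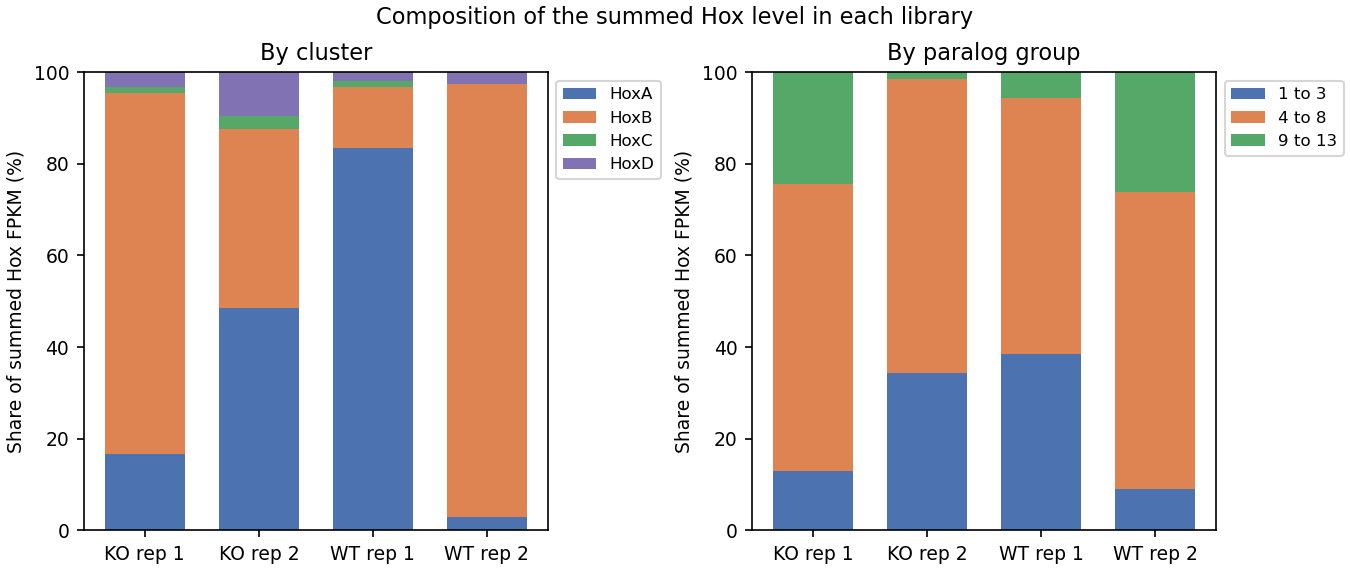
Share of the summed Hox FPKM (%) in each library by cluster (left) and by paralog group (right), as stacked bars. HoxB makes up 78.8% and 39.2% in the KO libraries and 13.2% and 94.6% in the WT libraries, and groups 9 to 13 exceed 20% in KO replicate 1 and WT replicate 2 alone.

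The HoxB genes were set against their level in WT replicate 2 to see whether the cluster was lower as a block. In KO replicate 1, Hoxb3, Hoxb4 and Hoxb5 stood at 10%, 9.35% and 11.3% of that level, and Hoxb6, Hoxb7, Hoxb8 and Hoxb9 at 20.3%, 28%, 15.3% and 22.7%. In KO replicate 2, the values for Hoxb3 to Hoxb7 lay between 5.24% and 9.35%, and Hoxb8 and Hoxb9 were at 3.23% and 0.61%. In WT replicate 1, Hoxb3 and Hoxb4 were at 5.24% and 5.28%, and Hoxb5 to Hoxb9 between 0.96% and 3.13%. Hoxb6 to Hoxb9 thus stood at a larger part of the WT replicate 2 level than Hoxb3 to Hoxb5 in KO replicate 1 and at a smaller part in WT replicate 1, and in KO replicate 2 Hoxb8 and Hoxb9 were the lowest. The WT replicate 1 values rest on counts of 11, 5 and 6 for Hoxb3 to Hoxb5. For Hoxb6 to Hoxb9 the counts there were 7, 2, 3 and 10. Against WT replicate 1, Hoxa5 was at 29.8% and 14.9% in KO and 4.68% in WT replicate 2, a wider spread than the 53.9%, 78.2% and 53% of Hoxa3.

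The comparison of Strap KO with Strap WT asks whether Hox expression in the adenomas differs with Strap. No Hox gene was called in either direction by edgeR's quasi-likelihood test at a Benjamini-Hochberg adjusted p under 0.05, where 0.00783% of all 12769 genes tested were called higher and 0% lower. Strap itself was not called either, with a log2 fold change of -2.57 (SE 0.26, edgeR adjusted p = 0.0942). A gene not called here is thus not shown to be unchanged. Of the 39 Hox genes, 11 passed the filter on low counts, 4 of HoxA, 6 of HoxB and Hoxd4. Hoxb4 did not pass it, since its counts reached 10 in WT replicate 2 alone. At an unadjusted p under 0.05, 0 of the 11 passed, against 15.8% of all genes. DESeq2 also called 0 of the 11, where it called 1.82% of all genes higher and 3.32% lower, and limma on log2(FPKM + 1) called 0. Adjusted p-values of edgeR lay between 0.371 and 0.991. For none of the 11 did both KO libraries lie above, or both below, both WT libraries, where 25.5% and 24.6% of all genes did.

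The fitted values were negative for each of the 11 genes and imprecise. The median log2 fold change, KO over WT, was -1.48 over the 11 genes and 0 over all genes, and the median SE was 1.3 over the 11 genes and 0.3 over all genes. Hoxb3 had the smallest p, with a log2 fold change of -2.71 (SE 1.3, edgeR adjusted p = 0.371). Hoxb9 averaged 2.1 ± 2.81 FPKM in KO and 9.14 ± 12.6 FPKM in WT (SD, n = 2 each), with a log2 fold change of -2.01 (SE 1.89, edgeR adjusted p = 0.634). Hoxb6 averaged 2.51 ± 1.73 FPKM in KO and 9.35 ± 12.7 FPKM in WT, with a log2 fold change of -1.82 (SE 1.48). The SD in WT exceeded the WT mean for both genes. Hoxa5 averaged 0.525 ± 0.248 FPKM in KO and 1.23 ± 1.58 FPKM in WT, with a log2 fold change of -1.16 (SE 1.28). Hoxa3 had the smallest SE, with a log2 fold change of -0.19 (SE 0.53, edgeR adjusted p = 0.885).

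The sign of the HoxB values rested on 1 library. Without WT replicate 2, the log2 fold changes of the 6 HoxB genes and Hoxd4 turned positive, from 0.62 for Hoxb3 to 3.84 for Hoxb7, with edgeR adjusted p-values between 0.338 and 0.827. Without WT replicate 1, Hoxa3, Hoxa4 and Hoxa5 turned positive, at 0.32, 2.15 and 2.28. With the filter unchanged, the median of the 11 genes was 1.57 without WT replicate 2, against -2.48 without WT replicate 1. The spread between the WT libraries was wide for these genes. Of the 11, 7 exceeded their WT replicate 1 level more than 4-fold in WT replicate 2 on the log2(CPM + 0.1) scale, where 1.07% of all genes were, and 2 were more than 4-fold lower, where 2.87% were. Between KO replicates 1 and 2, 3 of the 11 were more than 4-fold higher in replicate 1, where 0.728% of all genes were, namely Hoxb7, Hoxb8 and Hoxb9.

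**Figure D4:**
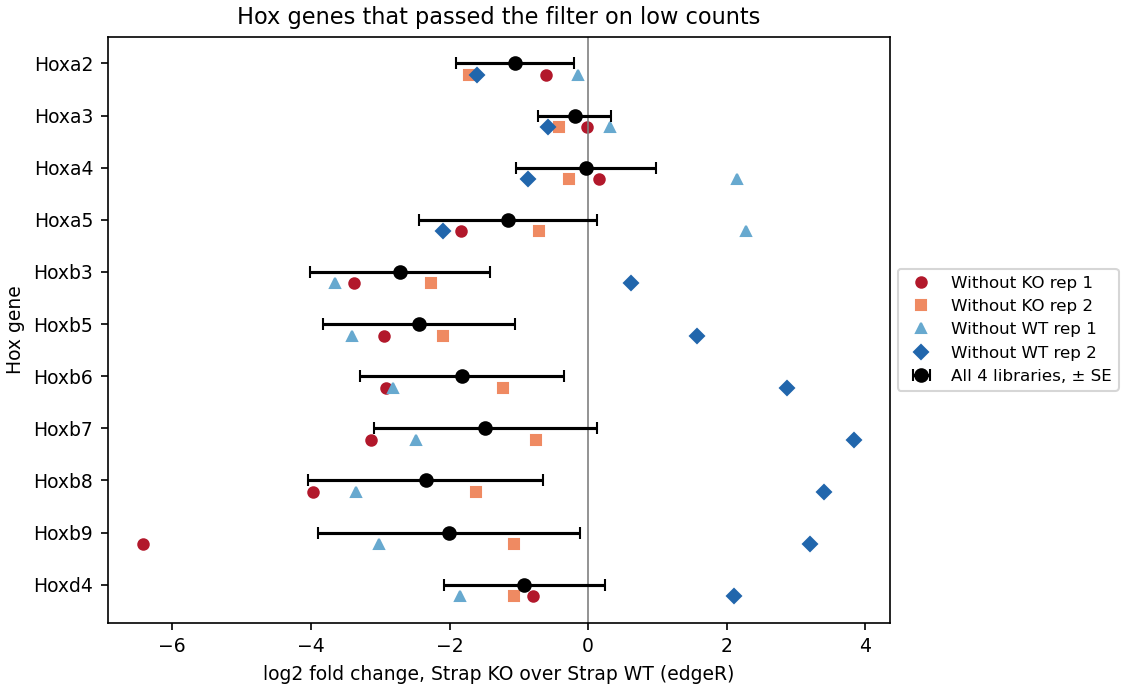
log2 fold change, Strap KO over Strap WT, of the 11 Hox genes that passed the filter on low counts (black points, bars ± SE, edgeR), with the value without each library as coloured symbols. The values without WT replicate 2 (dark blue diamonds) lie right of 0 for the 6 HoxB genes and Hoxd4, at 0.62 to 3.84, while the values with all 4 libraries lie left of 0.

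Genes that mark a position along the intestine also differed between the libraries, and their part in the Hox values was not tested. Gata4, which keeps a jejunal programme active, was at 43.5 and 51.4 FPKM in KO, against 40.4 and 8.25 FPKM in WT. Onecut2, a duodenal transcription factor gene, was at 1.96 and 2.81 FPKM in KO, against 5.45 and 0.13 FPKM in WT. Both were lowest in WT replicate 2, the library with the highest HoxB level. Gata5, of the same list, was highest there, with 34.5 and 33.4 FPKM in KO, against 27.5 and 36.2 FPKM in WT. Apoa4, an apolipoprotein gene of fat-absorbing cells, was at 1942 and 1048 FPKM in KO, against 2641 and 90 FPKM in WT, and Lct, the lactase gene, at 103 and 155 FPKM in KO, against 85.2 and 26.2 FPKM in WT. Fabp6 and Slc10a2 serve bile acid uptake in the ileum. Fabp6 was at 1860 and 279 FPKM in KO, against 952 and 5605 FPKM in WT, and Slc10a2 at 16.3 and 2.94 FPKM in KO, against 21.3 and 64.9 FPKM in WT. Both were highest in WT replicate 2 and lowest in KO replicate 2. The 12 genes of the small intestine list summed to 13770 and 10460 FPKM in KO, against 16100 and 9528 FPKM in WT. Of the colon list, 9 of 10 genes were listed, and their summed level was 861 and 684 FPKM in KO, against 1099 and 2338 FPKM in WT. Most of that sum was Ang4, a Paneth and goblet cell gene, at 769 and 519 FPKM in KO, against 587 and 2087 FPKM in WT. Slc26a3, a chloride exchanger gene of the list, was not highest in WT replicate 2, with 42.2 and 64.9 FPKM in KO, against 90.3 and 52.6 FPKM in WT. The colon genes Aqp8 and Insl5 were at most 0.59 FPKM, and Prac1, beside Hoxb13, was not listed.

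**Figure D5:**
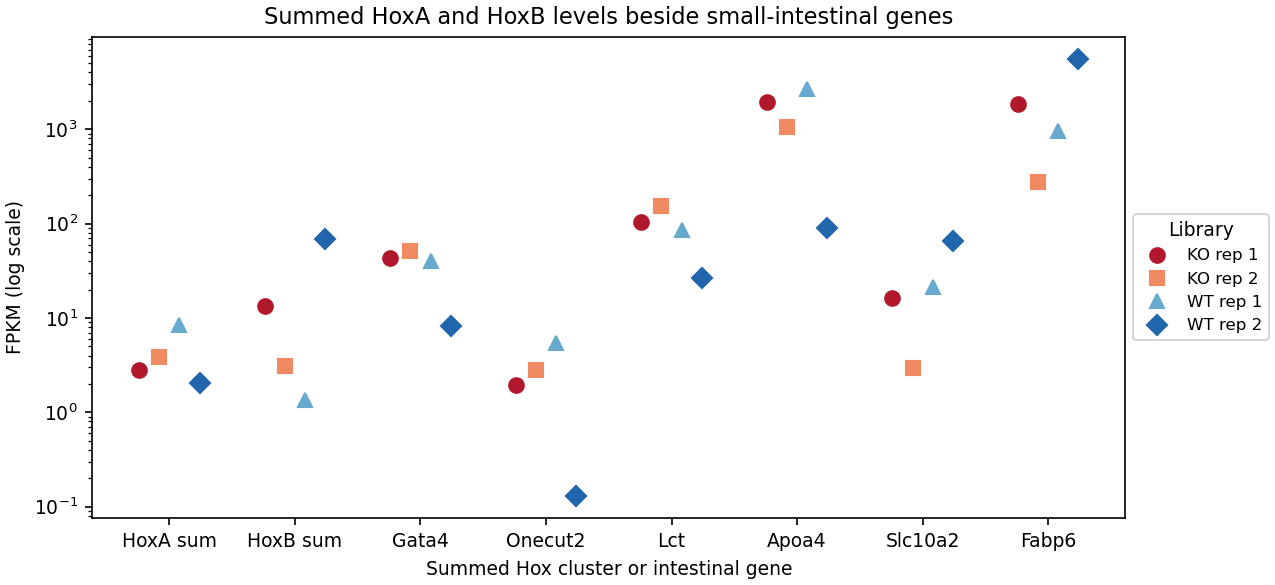
Summed HoxA and HoxB FPKM beside 6 genes of the small intestine, per library, on a log scale. WT replicate 2 is highest for HoxB (68.2 FPKM), Slc10a2 and Fabp6, and lowest for HoxA (2.06 FPKM), Gata4, Onecut2, Lct and Apoa4.

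The libraries were dominated by epithelial transcripts. Epcam was at 852 and 826 FPKM in KO, against 777 and 1019 FPKM in WT, and the 8 epithelial markers summed to between 6040 and 8123 FPKM. Connective tissue, where Hox genes are also active, gave sums far below the epithelial ones. The HoxA sums were also small, at 2.83 and 3.83 FPKM in KO, against 8.46 and 2.06 FPKM in WT. Fibroblast, smooth muscle, neuronal and endothelial sums were each highest in WT replicate 1, as the HoxA sum was. The part of these cells in the Hox values was not tested. The 10 fibroblast markers summed to 1.45 and 2.01 FPKM in KO, against 3.75 and 2.17 FPKM in WT, and the collagen genes Col1a1, Col1a2 and Col3a1 were at most 0.35 FPKM. The 8 smooth muscle markers summed to 1.2 and 2.09 FPKM in KO, against 2.69 and 1.58 FPKM in WT, with Myh11 at most 0.03 FPKM. The 9 neuronal and glial markers summed to 0.98 FPKM in each KO library, against 5.63 and 1.75 FPKM in WT. Ret made up 3.75 FPKM of this sum in WT replicate 1, and Sox10 and Gfap were not listed in any library. The 8 endothelial markers summed to 0.85 and 1.11 FPKM in KO, against 11 and 2.06 FPKM in WT, of which Cdh5 made up 9.1 FPKM in WT replicate 1, while Pecam1 was at most 0.45 FPKM. T and natural killer cell markers summed to 27.6 and 290 FPKM in KO, against 49.6 and 32.9 FPKM in WT, so they were highest in KO replicate 2. Markers of B and plasma cells summed to 1.98 and 7.68 FPKM in KO, against 6.75 and 2.45 FPKM in WT. Those of myeloid cells summed to 11.2 and 14.8 FPKM in KO, against 11.4 and 15.2 FPKM in WT. Of the myeloid sum, Itgam made up 8.11 and 9.6 FPKM in KO, against 2.63 and 9.3 FPKM in WT. Csf1r, Cd68, C1qa, C1qb and C1qc were highest in WT replicate 1, at 0.44 to 2.75 FPKM. Lyz2 was highest in WT replicate 2, at 4.21 FPKM. Adipocyte markers, nearly all from Cidec, summed to 16.3 and 10.9 FPKM in KO, against 25.6 and 4.07 FPKM in WT, and Adipoq was not listed.

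Among regulators of the Hox genes, Cdx1 and Cdx2 were abundant throughout. Cdx1 was at 205 and 117 FPKM in KO, against 126 and 186 FPKM in WT, with a log2 fold change of 0.11 (SE 0.39, edgeR adjusted p = 0.918). Cdx2 was at 123 and 100.1 FPKM in KO, against 80 and 118 FPKM in WT, with a log2 fold change of 0.22 (SE 0.29, edgeR adjusted p = 0.744). Both were higher in KO replicate 1 and WT replicate 2, the libraries with the larger share of HoxB, than in the other libraries of their genotype. Over the 4 libraries both were highest in KO replicate 1, while the HoxB level was highest in WT replicate 2. The part of Cdx1 and Cdx2 in the Hox values was not tested. Evx1, the neighbour of HoxA, was at most 0.09 FPKM and Evx2, the neighbour of HoxD, was not listed. Cdx4 was not listed, and Pdx1, a foregut ParaHox gene, was at most 0.21 FPKM. Of 9 trithorax group genes, which keep Hox genes active, and 19 polycomb group genes and antagonists, which act on Hox silencing, none was called. The median log2 fold change was 0.01 for the trithorax and -0.24 for the polycomb list, beside 0 over all genes. Of the 19 polycomb list genes, 4 had both KO libraries above both WT libraries and 8 had both below. Over all genes these shares were 25.5% and 24.6%. Pcgf2 of this list was at 8.46 and 11.49 FPKM in KO, against 21.88 and 16.15 FPKM in WT. Its log2 fold change was -0.91 (edgeR adjusted p = 0.227). Phc2 was at 44.3 and 36.7 FPKM in KO, against 25.9 and 24.8 FPKM in WT. Its log2 fold change was 0.71 (edgeR adjusted p = 0.26). Kmt2a, whose product methylates histone H3 at Hox genes, was at 2.41 and 4.39 FPKM in KO, against 5.68 and 6.04 FPKM in WT (log2 fold change -0.77, edgeR adjusted p = 0.279). Suz12, a subunit of the polycomb complex that methylates histone H3, was at 26.6 and 28.1 FPKM in KO, against 19.5 and 17.4 FPKM in WT (log2 fold change 0.60, edgeR adjusted p = 0.264).

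The partner genes of Hox proteins were not called either. Of the 4 Pbx genes, all tested, 0 were called and the median log2 fold change was -0.25. Of the 5 Meis and Pknox genes 3 were tested and 0 called. Meis3 was at 1.06 and 0.59 FPKM in KO, against 1.5 and 3.71 FPKM in WT, and Meis2 at 0.28 and 0.49 FPKM in KO, against 2.34 FPKM in WT replicate 1 and no listing in WT replicate 2. Retinoic acid, an inducer of anterior Hox genes, is made and cleared by enzymes of which several were highest in WT replicate 1. Aldh1a3 was at 4.27 FPKM there, at 0.06 FPKM in WT replicate 2 and not listed in KO, and Cyp26a1 was listed there alone, at 0.87 FPKM. Of 15 genes of retinoic acid handling and reception 8 were tested and 0 called, with a median log2 fold change of -0.43. The part of these genes in the Hox values was not tested. Of 18 noncoding RNAs of the Hox clusters 7 were listed, each at most 0.68 FPKM, and 0 were tested. Hotairm1, a transcript of the anterior HoxA cluster, was at 0.33 FPKM in KO replicate 1 and 0.68 FPKM in WT replicate 1.

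Promoter sequence was at hand for 22 of the 39 genes, in 24 windows of 250 bases before a RefSeq start on GRCm38.p6. They are shown for 3 genes that differ in the order of the WT libraries. Hoxa5, like the HoxA sum, was higher in WT replicate 1. Hoxb8 and Hoxd4, like the HoxB sum, were higher in WT replicate 2. For Hoxa5 and Hoxd4 the order of the KO libraries was the reverse of that in the sum named. Capitals mark TTTATG and TTTATT, letters bound by Cdx-type homeodomains, on either strand.
Hoxa5, chr6:52204588-52204837, minus strand: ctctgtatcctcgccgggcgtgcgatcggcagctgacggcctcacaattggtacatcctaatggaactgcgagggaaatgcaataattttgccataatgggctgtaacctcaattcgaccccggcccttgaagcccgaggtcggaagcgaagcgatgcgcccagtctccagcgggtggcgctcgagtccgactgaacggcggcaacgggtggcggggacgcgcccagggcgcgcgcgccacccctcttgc
Hoxb8, chr11:96281655-96281904, plus strand: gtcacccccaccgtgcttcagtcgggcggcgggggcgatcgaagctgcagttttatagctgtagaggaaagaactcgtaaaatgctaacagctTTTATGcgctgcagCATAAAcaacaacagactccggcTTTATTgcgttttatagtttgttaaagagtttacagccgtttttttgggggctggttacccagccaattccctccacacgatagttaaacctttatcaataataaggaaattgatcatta
Hoxd4, chr2:74721728-74721977, plus strand: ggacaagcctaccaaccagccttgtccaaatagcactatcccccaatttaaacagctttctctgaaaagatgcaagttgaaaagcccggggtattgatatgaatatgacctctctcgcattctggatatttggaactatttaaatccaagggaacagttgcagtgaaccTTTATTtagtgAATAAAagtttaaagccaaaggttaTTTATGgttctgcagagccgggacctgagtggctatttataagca

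The Hoxa5 window held neither motif, had 63.6% G and C and 28 CpG, against medians of 52.4% and 6 over 32851 promoters in the table. The Hoxb8 window held TTTATG 2 times and TTTATT once, with 44.4% G and C. The Hoxd4 window held TTTATG once and TTTATT 2 times, with 40.4% G and C. None of these matches overlapped another. TTTATG was present in 5 of the 24 Hox windows and in 10.8% of all promoters, and TTTATT in 5 of 24 and in 18.1%. The Hoxb4 window, of a gene with the same order of libraries as Hoxb8 in WT, held neither motif. Among other HoxA genes highest in WT replicate 1, the Hoxa2 window held TTTATT once and the Hoxa7 window TTTATG 2 times. The Hoxa3, Hoxa6 and Hoxa9 windows held neither. Both orders of the WT libraries thus had windows with and without these motifs. A match describes these letters and is not a measured binding site.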

How the data were processed

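Polyadenylated RNA of 4 libraries was measured, and each library has a deposited table of its own. The authors' expected counts per gene and their FPKM stand side by side in these deposited tables, as the file headers name them. Bowtie2 2.2.5, RSEM 1.2.12 and mm10 are listed by the submitters' processing notes with no role or order. The lowest listed FPKM is 0.01. Genes without a row in a library are termed not listed there and enter sums as 0. A row that names no gene was dropped from every table, at most 0.000233% of a library. Gene coordinates come from RefSeq on GRCm38.p6.

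Tables were joined by gene identifier (pandas 2.3.3) and counts rounded to whole numbers. edgeR 4.0.16 (quasi-likelihood, TMM, filterByExpr, genotype as the only term) tested 12769 genes, with Benjamini-Hochberg adjustment over all of them. The test was checked on simulated data. Alternatives were other scalings and filters, DESeq2 1.42.0, limma 3.58.1 with pseudocounts of 1 and 0.1, a block by replicate number, and leaving out each library.

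The members, lists and tests were chosen with earlier results of these data known. Each Hox gene reaching 1 FPKM in any library was to be named with its values, 12 in all, and the rest by range. Of other lists, the Cdx genes and at most 4 members with the smallest p among genes of at least 1 FPKM were to be named. The further Hox genes named, the marker, regional and flanking genes, Pdx1, Aldh1a3, Cyp26a1 and Hotairm1 were chosen after their values were seen. Some items are not reported here.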

Additional observations from a re-analysis of the deposited data

How the results depend on the processing

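No Hox gene was called in any setting tried. Genes called over all genes, higher and lower in KO, were 1 and 0 in the edgeR fit, 0 higher with library size alone, 0 higher with limma on log2(FPKM + 1) and on log2(FPKM + 0.1), 19 and 8 with no filter on low counts, and 233 and 424 with DESeq2. With the replicate block they were 46 and 70. Deviations of libraries of the same number correlated at -0.123, and a crossed pairing, chosen after seeing the data, gave 65 and 99. Leaving out each library in turn gave 0 to 41 higher and 0 to 133 lower. The cause of these shifts was not tested.

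The median log2 fold change of the tested Hox genes, -1.48, became -0.52 with limma on log2(FPKM + 1), -0.33 with a pseudocount of 0.1, and -0.46 with the replicate block, and ranged from -2.91 to 1.57 with 1 library left out. Hoxa4, at -0.03, turned to 0.07 and 0.42 with limma at pseudocounts of 1 and 0.1, 0.48 with the replicate block and 0.44 with the crossed pairing. With 1 library left out, a lone sample being assumed to vary like the other group, Hoxa3 ranged from -0.58 to 0.32, Hoxa4 from -0.87 to 2.15, Hoxa5 from -2.09 to 2.28, Hoxb3 from -3.66 to 0.62, Hoxb5 from -3.41 to 1.57, Hoxb6 from -2.91 to 2.87, Hoxb7 from -3.13 to 3.84, Hoxb8 from -3.97 to 3.4, Hoxb9 from -6.42 to 3.19 and Hoxd4 from -1.85 to 2.1. Hoxa2 alone kept its sign, ranging from -1.72 to -0.15. At or above 1 FPKM in both libraries were 2 Hox genes in KO and 1 in WT. At 0.5 FPKM it was 4 in KO. Single libraries had 2 to 5 in KO and 4 to 9 in WT. The posterior share, 12.9% in KO and 15.9% in WT, ranged over single libraries from 1.39% to 24.4% in KO and from 5.63% to 26.1% in WT, and counted from group 10 was 0.53% in WT. With 2 libraries a group and most Hox genes under 1 FPKM, depth limits what can be read for groups 10 to 13.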

Other observations

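Genes beside the HoxB cluster differed less between the WT libraries than the tested HoxB genes. Protein-coding genes within 300 kb of the cluster ends were taken after the Hox values were seen, 9 for HoxB, of which 6 passed the filter on low counts. Their log2 difference between WT replicates 2 and 1 lay between -0.73 and 1.23 on the log2(CPM + 0.1) scale, against 4.1 to 6.2 for the 6 tested HoxB genes. B4galnt2, a glycosyltransferase gene, was at 130.08 and 129.1 FPKM in KO, against 129.43 and 249.17 FPKM in WT. It was highest in WT replicate 2, like the tested HoxB genes, but near-equal in the other libraries. Skap1, a T cell adaptor gene, was at 0.42 and 0.52 FPKM in KO, against 0.27 and 0.73 FPKM in WT, and like Hoxb5 to Hoxb8 was highest in WT replicate 2 and lowest in WT replicate 1. Other neighbours had other orders. Atp5g1, a mitochondrial ATP synthase gene, was at 487 and 375 FPKM in KO, against 184 and 259 FPKM in WT, and Ube2z, a ubiquitin-conjugating enzyme gene, at 34.3 and 31 FPKM in KO, against 35.6 and 30.7 FPKM in WT. Gip, a duodenal hormone gene, was at 42.3 and 63.9 FPKM in KO, against 28.6 and 17.4 FPKM in WT, lowest in the library with the highest HoxB level. Beside HoxA, Skap2 was at 19.3 FPKM in both KO libraries, against 18.5 and 14.3 FPKM in WT. None of the 18 tested genes beside the 4 clusters was called by edgeR.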
